A study of Danio rerio with 23 samples.

Results

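The comparison was between ovaries of nr3c1 mutant and wild-type zebrafish (Danio rerio) at 3 months of age. It rests on 11 of the 23 libraries of the series, 6 titled GRKO and 5 titled WT, all from females. The genotype is nr3c1 -/- for 5 of the 6 GRKO libraries, and library 4 has conflicting labels, given further on. All were taken at 3 months post fertilisation. The labels name no tissue-specific driver, so the mutation is taken as one of the whole fish. The allele is not given in the sources used here, nor is it said if each library is from another fish. What the p-values measure is thus library-to-library spread, which may be technical in part. The series asks about the receptor's role in ageing of the ovary.

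The product of nr3c1 is a nuclear receptor that binds cortisol, the main glucocorticoid of fish, and then raises or lowers the transcription of its target genes. Cortisol is released through the stress axis and acts on metabolism, immunity and reproduction. An ovary holds oocytes, which store large amounts of maternal RNA, together with the granulosa and theca cells of the follicles, connective tissue, vessels and immune cells. RNA of the whole organ mixes all of these. In such bulk RNA, fewer cells of a type and less RNA per cell cannot be told apart.

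The deposited values were estimated counts per Ensembl transcript. Totals ranged from 30452427 to 37985230 counts in GRKO and from 33606803 to 39785753 in WT. The files pair no transcript with a gene, so transcripts are given by identifier, and neither the level of nr3c1 nor markers of the ovary's cell types were analysed here. Levels are in CPM, the counts scaled to a common library total. They are not corrected for transcript length and compare 1 transcript between libraries only. For GRKO library 4 the title and the library name say GRKO, while the genotype field names the wild type. Its title decided its place here, in GRKO. WT libraries 2 and 6 stood apart. The correlation of log2 CPM across transcripts was 0.938 between these 2, 0.853 to 0.905 between them and the GRKO libraries, and 0.765 to 0.801 between them and the other WT libraries. The count of calls, the counts of presence and absence and some library measures are also given without WT libraries 2 and 6. The sizes of the changes, the shares of counts, the separation of the genotypes and the classes of transcripts are given with them only.

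At 3 months the mutant ovary had lower levels of more transcripts than it had higher levels of, by a margin that depended on the libraries fitted and the scaling. The test covered 30849 transcripts and called 2588 (8.39%), with 820 higher in GRKO (2.66%) and 1768 lower (5.73%). The test was edgeR's quasi-likelihood test, with a Benjamini-Hochberg adjusted p under 0.05. The median log2 fold change was 1.00 among the higher transcripts and -2.05 among the lower ones. Of the higher transcripts, 50% changed less than 2-fold, which is a log2 fold change under 1, while 27.3% of the lower ones did. At the other end, 671 lower transcripts (38.0%) and 123 higher ones (15%) passed a log2 fold change of 3. These sizes include transcripts on which the WT libraries were split. In 451 lower calls WT libraries 10, 12 and 13 lay above every GRKO library and libraries 2 and 6 did not. The same pattern below every GRKO library held in 19 higher calls. Among calls without overlap between the genotypes the directions were closer, with 579 higher (median 1.14) and 734 lower (median -1.47). This fit also used the 6-month libraries for the filter, the scaling and the estimate of spread. With the 11 libraries of 3 months alone the directions were more even, with 1447 calls (5.42%), 651 higher and 796 lower. Scaling by upper-quartile factors also made the directions more even, with 2810 calls (9.11%), 1306 higher and 1504 lower. The median log2 fold change of all tested transcripts was -0.09 under TMM, the scaling used, -0.08 under RLE and -0.01 under upper-quartile factors.

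As shares of the RNA, the called transcripts were small sets that moved by different amounts. The higher transcripts together made up 6.69% ± 0.15 of the counts in GRKO and 4.34% ± 0.27 in WT (SD, n = 6 and 5). The lower transcripts made up 1.83% ± 0.068 of the counts in GRKO and 3.75% ± 0.46 in WT. WT libraries 2 and 6 lay at 3.29% each for the lower set, below WT libraries 10, 12 and 13 at 3.88%, 3.92% and 4.36%, and above all GRKO libraries, of which the highest was at 1.93%. For the higher set they lay at 4.38% and 4.70%, above the other WT libraries at 3.95% to 4.34% and below all GRKO libraries, of which the lowest was at 6.44%. Since the difference itself defined both sets, the shares give its size and are no test of it.

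**Figure D1:**
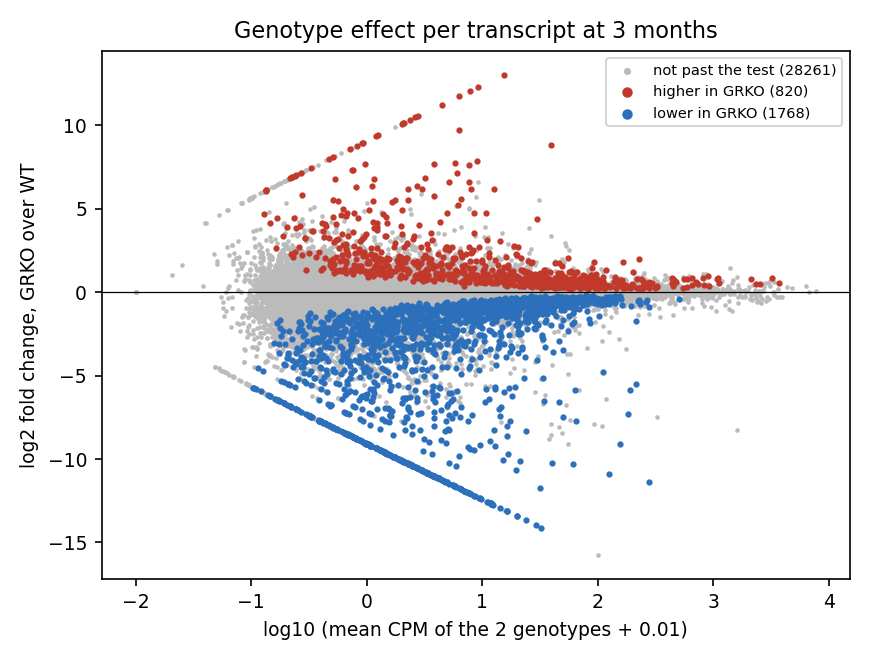
Log2 fold change of GRKO over WT at 3 months (y axis) against log10 of the mean CPM of the 2 genotypes plus 0.01 (x axis), 1 point per tested transcript. Red points (820) were higher and blue points (1768) lower past the test. Transcripts that 1 genotype lacks altogether have the most extreme values, and for them the fitted fold depends on the prior count and is no measured size.

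The 4 transcripts described next had the smallest adjusted p in each direction among 332 that met the same conditions, 135 higher and 197 lower in GRKO. The conditions were a call, no overlap between the libraries of the genotypes, at least 1 CPM on average in each genotype, and a log2 fold change of 1 or more in size. All 4 had fractional estimated counts in all 11 libraries, so reads may be split between them and other transcripts.

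ENSDART00000153642.2 stood at 17.9, 20.3, 18.2, 25.8, 15.4 and 20.6 CPM in GRKO libraries 4, 7, 9, 10, 12 and 13, against 2.58, 2.46, 2.43, 2.20 and 1.64 CPM in WT libraries 2, 6, 10, 12 and 13. The lowest GRKO library was 5.98 times the highest WT library. The means were 19.7 ± 3.53 CPM in GRKO and 2.26 ± 0.377 CPM in WT (SD, n = 6 and 5), with a log2 fold change of 3.12 (SE 0.20, edgeR adjusted p = 3.59e-09). WT libraries 2 and 6 were on the WT side here, as the condition of no overlap required.

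ENSDART00000151502.2 stood at 36.0, 32.8, 34.0, 34.6, 27.7 and 31.9 CPM in the GRKO libraries in the same order, against 6.84, 7.71, 4.89, 6.68 and 7.18 CPM in the WT libraries. The genotypes lay 3.59-fold apart at their nearest libraries. The log2 fold change was 2.30 (SE 0.18, edgeR adjusted p = 1.04e-07), from means of 32.8 ± 2.89 CPM in GRKO and 6.66 ± 1.07 CPM in WT.

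Among lower transcripts, ENSDART00000173612.2 stood at 3.31, 3.01, 2.57, 2.49, 2.57 and 3.19 CPM in the GRKO libraries, against 13.5, 27.9, 21.2, 14.9 and 11.4 CPM in the WT libraries. The WT libraries were the more spread, and the lowest of them, library 13, was still 3.45 times the highest GRKO library. Its log2 fold change was -2.64 (SE 0.23, edgeR adjusted p = 4.38e-07), with means of 2.85 ± 0.357 CPM in GRKO and 17.8 ± 6.73 CPM in WT.

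ENSDART00000132939.4 was the most abundant of the 4 in WT by counts and changed least. It stood at 36.9, 44.3, 42.7, 46.1, 38.9 and 41.9 CPM in the GRKO libraries, against 77.5, 94.9, 90.2, 80.3 and 83.0 CPM in the WT libraries. The groups did not overlap, with a gap of 1.68-fold between the nearest libraries. The log2 fold change was -1.03 (SE 0.094, edgeR adjusted p = 7.44e-07), from means of 41.8 ± 3.40 CPM in GRKO and 85.2 ± 7.21 CPM in WT. GRKO library 4, with the wild-type genotype field, lay on the GRKO side in all 4. The condition of no overlap required this, so these transcripts say nothing about its label.

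**Figure D2:**
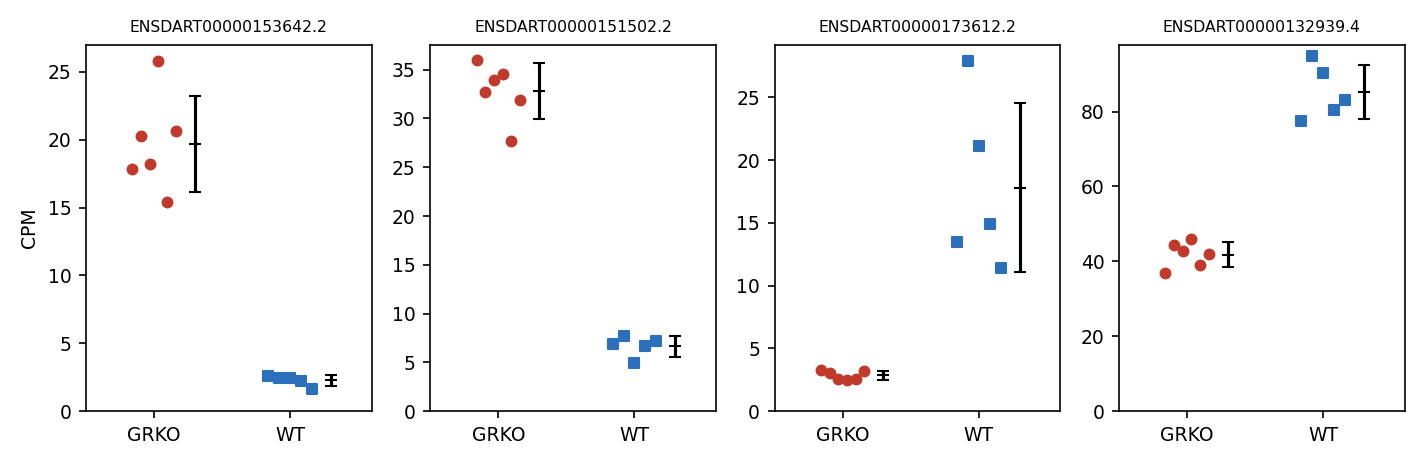
CPM (y axis, from 0) of the 4 named transcripts in each GRKO library (red circles, n = 6) and each WT library (blue squares, n = 5) at 3 months; black bars are the mean ± SD. In every panel the libraries of the genotypes do not overlap, which was a condition for naming the transcripts. WT libraries 2 and 6, the first pair of squares, therefore had to lie on the WT side.

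Complete separation of the genotypes took a larger share of the higher calls than of the lower calls, while over all tested transcripts the directions were close. Over all tested transcripts 6.21% had libraries that did not overlap between genotypes, 919 with every GRKO library above every WT library (2.98%) and 998 with every GRKO library below every WT library (3.24%). Of the 820 higher calls 579 (70.6%) separated the genotypes in this way, and of the 1768 lower calls 734 (41.5%) did. Separation and call come from the same values, so these shares describe the calls and are no support for them. In 120 of the 579 and 183 of the 734, the nearest libraries of the genotypes lay 2-fold or more apart. They lay 4-fold or more apart in 68 and 102, counting 21 and 47 transcripts that the lower genotype lacked altogether.

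The calls without complete separation differed by direction in which WT libraries lay outside the GRKO range. Among lower transcripts, 451 (25.5%) had WT libraries 10, 12 and 13 above every GRKO library while neither WT library 2 nor 6 was. Their median log2 fold change was -5.89, or -5.36 with the 166 of them at a count of 0 in all GRKO libraries set at the bound that 3 counts over that group allow. The 734 separated lower transcripts had a median of -1.47, and the 579 separated higher ones a median of 1.14. In the higher group, 19 transcripts (2.32%) had the pattern of WT libraries 10, 12 and 13 alone. Each WT library lay below the GRKO range in 85.6% to 95.1% of the higher calls. In the lower calls, WT libraries 2 and 6 lay above the GRKO range in 64.7% and 65.4%, and WT libraries 10, 12 and 13 in 89.8% to 92.5%. The reverse pattern, with WT libraries 2 and 6 above all GRKO libraries and 1 or more of the other WT libraries not, was held by 261 lower transcripts (14.8%). These patterns were counted among the calls only. How frequent they are over all tested transcripts was not counted, so the shares describe the calls and do not set them apart from the rest.

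The share of transcripts called, and its direction, changed with abundance in counts. Under 1 CPM on average, 123 of 9724 transcripts were higher (1.26%) and 368 lower (3.78%). At 1 to 10 CPM, 253 of 10342 were higher (2.45%) and 809 lower (7.82%). At 10 to 100 CPM, 345 of 8809 were higher (3.92%) and 543 lower (6.16%). Over 100 CPM the order turned, with 99 of 1974 higher (5.02%) and 48 lower (2.43%). The median log2 fold change of all transcripts in these classes went the same way, at -0.21, -0.19, -0.02 and 0.06. Of the calls in these classes, 25.1%, 23.8%, 38.9% and 67.3% were higher.

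Among transcripts that varied little between WT libraries, the calls were spread over both directions, and among those that varied most, 8.36% of the calls were higher. Transcripts were ranked by the standard deviation of log2 CPM among the 5 WT libraries and divided into 3 classes of 10283, at 0.443 and 0.989. In the steadiest class 499 were higher (4.85%) and 588 lower (5.72%), and 10.2% had libraries that did not overlap between genotypes. In the middle class 252 were higher (2.45%) and 424 lower (4.12%). In the most variable class 69 were higher (0.671%) and 756 lower (7.35%), and 2.72% had no overlap. The WT libraries enter both this ranking and the test, so the classes describe the calls and are not independent of them.

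The shares called were close for transcripts with whole and with fractional estimated counts. Of the 3989 tested transcripts with whole counts in every library of the series, for which no read was split in fractions, 112 were higher (2.81%) and 245 lower (6.14%). Of the 26860 others, 708 were higher (2.64%) and 1523 lower (5.67%). The named transcripts belong to the second kind.

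Among the tested transcripts, presence in 1 genotype and absence from the other was mainly in the direction of loss in GRKO. At 0 after rounding in the 6 GRKO libraries, but at 1 CPM or more on average in WT, were 285 transcripts, of which 217 passed the test. At 0 in the 5 WT libraries, but at 1 CPM or more on average in GRKO, were 26 transcripts, of which 18 passed. Most of the 285 were not general to the wild type, since 31 were carried by all 5 WT libraries and 191 by WT libraries 10, 12 and 13 alone. WT libraries 2 and 6 carried 68 and 62 of the 285, and WT libraries 10, 12 and 13 carried 257, 262 and 261. Of the 26, 16 were carried by all 6 GRKO libraries, and single GRKO libraries carried 21 to 24. All 31 and all 16 passed the test. They were chosen for 0 in every library of 1 genotype and presence in every library of the other. Their calls thus follow largely from the choice and are no further support. With 5 or 6 carriers they could also pass the filter through that genotype alone. Without WT libraries 2 and 6, the same counts were 306 and 165. A count of 0 is then asked of 3 WT libraries only, which by itself lets more transcripts pass. At a count of 0 these totals allow up to 3 counts per group, so absence means below that level. The filter asked for enough counts in at least 5 of all 23 libraries, the size of the smallest group. Transcripts carried by fewer than 5 libraries at 3 months, such as the 191, were thus tested only because 6-month libraries carried them. Presence and absence were not counted with a filter on the libraries of 3 months alone.

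The transcripts present in 1 genotype alone differed from the rest in their identifiers and in the kind of their counts. Identifiers numbered 180000 or above made up 150 of the 285 (52.6%) and 11 of the 26 (42.3%), against 5258 of the 30849 tested (17.0%). Whole counts in every library were held by 2 of the 285 (0.702%) and 1 of the 26 (3.85%), against 12.9% of those tested. Nearly all of them thus had a read split with another transcript somewhere in the series. The part of such splitting in the values of 0 was not tested. Over all calls the number in the identifier made less difference, with 2.36% higher and 6.60% lower among those numbered 180000 or above and 2.72% higher and 5.55% lower among the others.

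Each library was next placed on transcripts it had not helped to choose. The fit was repeated without the library, and the library's log2 CPM for the transcripts called was set on a scale where 0 is the mean of the other WT libraries and 1 the mean of the other GRKO libraries. The 6 GRKO libraries lay at medians of 0.96 to 1.00, over 1687 to 1937 calls each (5.49% to 6.31% of those tested). They were nearer the GRKO mean for 85.6% to 92.9% of these transcripts, against 60.7% to 66.2% of the transcripts not called. GRKO library 4 lay at 0.99, nearer GRKO for 88.1% of 1900 calls (6.2%), among the other GRKO libraries. WT libraries 10, 12 and 13 lay at 0.10, -0.00 and -0.05, nearer WT for 74.3%, 81.1% and 83.8% of 1575 to 2027 calls (4.96% to 6.4%).

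WT libraries 2 and 6 lay between the genotypes on this scale. They stood at 0.65 each, over 3504 and 3593 calls (11.1% and 11.3%), and were nearer WT for 43.0% and 41.6% of these transcripts, against 40.2% and 40.1% of those not called. Their position differed with direction. On transcripts higher in GRKO they lay at 0.44 and 0.54, and on lower transcripts at 0.80 and 0.76. With 1 of them left out the other still sat in the WT mean.

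**Figure D3:**
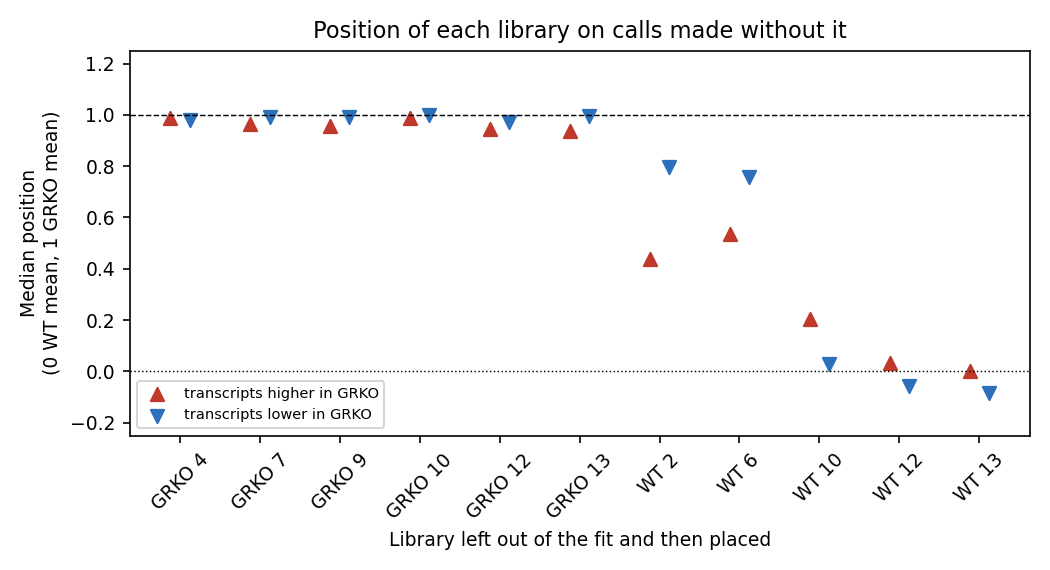
Median position (y axis, 0 at the mean of the other WT libraries and 1 at the mean of the other GRKO libraries) of each library at 3 months (x axis) on transcripts called in a fit without it, for transcripts higher (red) and lower (blue) in GRKO. All 6 GRKO libraries lie near 1, WT libraries 12 and 13 near 0, and WT libraries 2 and 6 between 0.44 and 0.80.

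Leaving out both WT libraries 2 and 6 gave 8937 calls of 32847 transcripts tested (27.2%), 3732 higher and 5205 lower. On these, libraries 2 and 6 lay at or past the mutant mean, at medians of 1.08 and 1.07, and were nearer WT for 20.5% and 19.5%. Among the 23910 transcripts not called they were nearer WT for 38.5% and 37.5%, so they leaned to GRKO there too, though less. Of the 8937 calls, both were nearer GRKO for 6569 transcripts (73.5%), and both lay past the GRKO mean for 4517 (50.5%). Both were nearer WT for 1203 transcripts (13.5%), 470 higher and 733 lower in GRKO, with median log2 fold changes of 1.26 and -1.74. The 6569 had smaller changes, with medians of 0.81 for the 2722 higher and -1.33 for the 3847 lower. Most of the 8937 calls therefore set GRKO libraries together with WT libraries 2 and 6 apart from WT libraries 10, 12 and 13. Why the WT libraries divide was not tested.

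**Figure D4:**
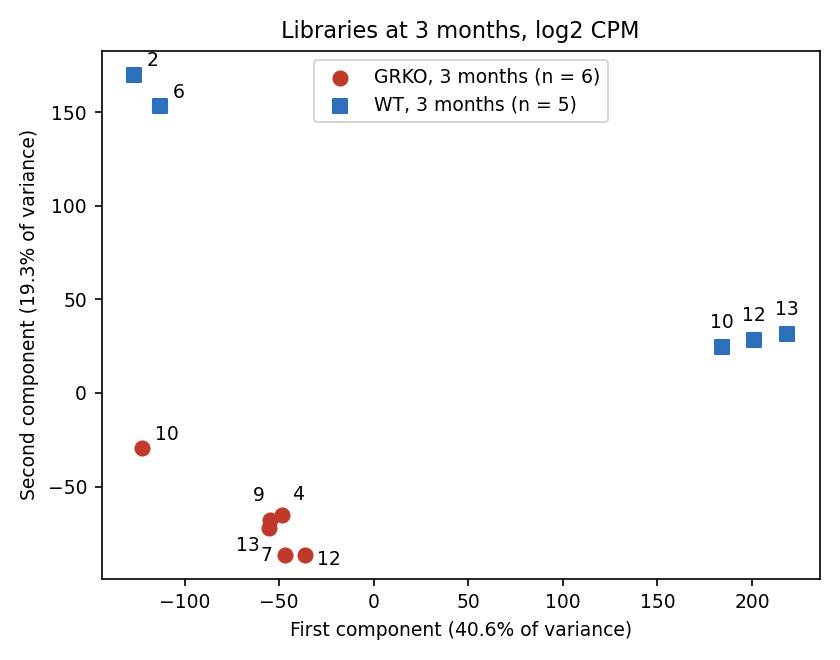
First (40.6% of the variance) and second (19.3%) principal components of log2 CPM for the 6 GRKO libraries (red circles) and 5 WT libraries (blue squares) at 3 months, with library numbers. WT libraries 10, 12 and 13 lie at 184 to 219 on the first component. WT library 2 lies at -127 on it, beyond all 6 GRKO libraries, and WT library 6 at -113, beyond 5 of them. On the second component all WT libraries lie above 0 and all GRKO libraries below it.

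The second component, and not the first, separated the genotypes. The GRKO libraries lay between -86.4 and -29.7 on it, WT libraries 10, 12 and 13 between 24.5 and 31.6, and WT libraries 2 and 6 at 170 and 153. On the first component GRKO library 10 lay at -122, beside WT libraries 2 and 6, and the other GRKO libraries at -55.2 to -36.4. The components are a description of these libraries, with no test.

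The label of GRKO library 4 was also set beside transcripts present in 1 genotype alone. It carried 16 of 17 transcripts that all 5 other GRKO libraries carried and no WT library did. It also carried 14 of 45 transcripts that all 5 WT libraries carried and the other 5 GRKO libraries lacked, 7 of them at 1 CPM or more. The other GRKO libraries carried 0 to 6 of the 31 to 37 such transcripts, 0 to 2 at 1 CPM or more. The mirror count took transcripts that all GRKO libraries carried and the other WT libraries lacked. WT library 10 carried 9 of 25 of these, 5 at 1 CPM or more, and the other WT libraries 1 to 5 of 17 to 21. Counting GRKO library 4 as WT left 456 calls (1.48%), 65 higher and 391 lower. Leaving it out gave 724 higher and 1176 lower.

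The GRKO libraries were more alike than the 5 WT libraries, mostly through WT libraries 2 and 6. The median standard deviation of log2 CPM per transcript was 0.400 in GRKO and 0.655 in WT, and 74.0% of transcripts varied more in WT. It was 0.312 over WT libraries 10, 12 and 13 alone. These 3 were taken because they lie together, and an SD of 3 values tends to be lower than one of 6. The value 0.312 thus does not show that they vary less than GRKO. The root mean square distance of a library from the mean of the others of its genotype was 0.93 ± 0.063 log2 units in GRKO and 1.47 ± 0.19 in WT (SD, n = 6 and 5). The values ran from 0.831 to 0.998 in GRKO and from 1.30 to 1.72 in WT without overlap (two-sided exact permutation test, p = 0.00433, the smallest it can give, adjusted over 6 measures 0.026). Each distance depends on the other libraries of its genotype, and the distances were not computed anew for each arrangement. The split among the WT libraries raises all 5 of their values together. The p-values of the distance treat such linked values as separate and cannot be read as those of independent libraries. With any single WT library left out the adjusted p was 0.0571, the lowest that 1 measure alone can reach with 4 WT libraries. Without WT libraries 2 and 6 the difference shrank to -0.15 (exact permutation test, adjusted p = 0.0476). A mean of fewer libraries is itself less exact, and with distances corrected for this they were 0.849 ± 0.058 in GRKO and 0.882 ± 0.071 in WT (n = 6 and 3, exact permutation p = 0.452).

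The other library measures showed no difference past the test. After thinning to 1 depth, 35860 ± 715 transcripts were detected in GRKO and 36694 ± 718 in WT (two-sided exact permutation test, p = 0.0996, adjusted 0.299). The 10 most abundant transcripts took 5.14% ± 0.31 of the counts in GRKO and 5.21% ± 0.69 in WT (adjusted p = 0.965), and the 100 most abundant took 22.7% ± 1.79 in GRKO and 22.8% ± 3.36 in WT (adjusted p = 0.965, exact permutation tests). The effective number of transcripts, the exponential of the Shannon entropy, was 4447 ± 369 in GRKO and 4624 ± 465.9 in WT (exact permutation test, adjusted p = 0.896). Within WT the 100 most abundant took 18.3% and 20.04% in libraries 2 and 6 and 24.9% to 25.6% in the other libraries. Without libraries 2 and 6 the difference in their share, GRKO minus WT, was -2.47 percentage points (exact permutation p = 0.0238, the smallest for 6 against 3). Its adjusted p was 0.0476 beside the uncorrected distance and 0.0714 beside the corrected one, so this call rests on the choice of distance. Libraries 2 and 6 were left out because they stood apart in these same data, and they had the lowest shares in WT. Leaving them out thus widens the difference by itself, and these p-values are no test of genotype.

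A minority of the calls held in every fit that left out 1 library. Calls in all 11 fits that each left out 1 library, in the same direction, numbered 1237 (47.8% of the 2588), 459 higher and 778 lower. Of these, 878 (71.0%) had no overlap between the genotypes, and 1201 were also called without WT libraries 2 and 6. Their median log2 fold changes were 1.12 and -2.44. The 4 named transcripts, chosen for their small adjusted p in the same data, were in this set. The count of calls ranged from 1575 without WT library 13 to 3593 without WT library 6. It moved by over 1.5 times without WT library 12 (1696, 5.35%), WT library 13 and GRKO library 10 (1687). Without GRKO libraries 7, 9 and 13 the share called was 5.99%, 6.03% and 5.91%. The share stayed close under RLE factors (8.32%), without robust estimation (8.35%) and after thinning (8.64%). It was 3.35% with no filter on low counts, 5.42% with the 11 libraries alone, 10.7% with a filter of 1 CPM in 5 libraries and 10.6% among transcripts with whole counts. DESeq2 called 13.3%, and limma voom with quality weights, which weighs each library, called 33.1%. The weights given to WT libraries 2 and 6 were not looked at. The 6 libraries whose numbers occur in both genotypes gave 15% with a replicate block and 27% without it. These are libraries 10, 12 and 13 of each genotype, so both fits also leave out WT libraries 2 and 6. The fit that left out only WT libraries 2 and 6 called 27.2%.

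**Figure D5:**
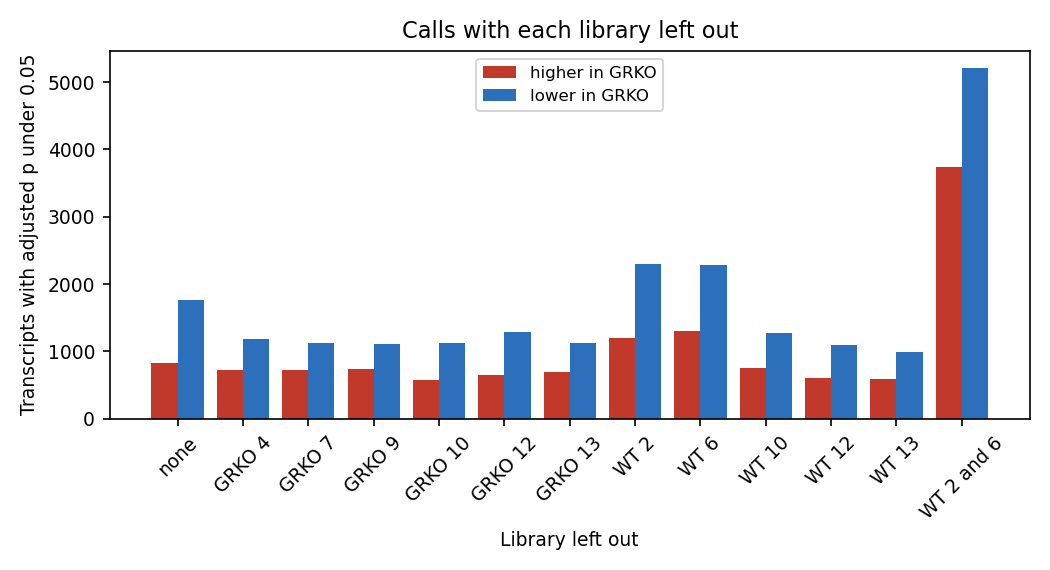
Number of transcripts higher (red) and lower (blue) in GRKO at adjusted p under 0.05 (y axis, from 0) with no library left out, with each of the 11 libraries at 3 months left out in turn, and with WT libraries 2 and 6 left out together (x axis). Leaving out WT 2 or 6 alone raises both counts, leaving out both gives 3732 higher and 5205 lower, and every other library left out lowers both counts.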

How the data were processed

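The deposited files hold estimated counts per transcript for 23 ovary libraries, made from polyadenylated RNA per the labels' protocols. The submitters' processing notes name kallisto 0.48.0 and the build GRCz11; the annotation release and any read filter are unstated in these sources. Of the nonzero values 75.3% were not whole (tolerance 1e-06). Estimated counts were rounded. The main test was edgeR 4.0.16 (R 4.3.3; robust quasi-likelihood test, TMM factors) on all 23 libraries with 1 mean per genotype and age, after edgeR's default filter (minimum count 10, total 15). The 6-month libraries thus enter the filter, the scaling and the estimate of spread, and 26673 transcripts passed the filter with the 11 libraries of 3 months alone. Benjamini-Hochberg adjustment ran over 30849 transcripts, with a threshold of 0.05. Standard errors were derived from the fold change and the F statistic. Log2 CPM used a prior count of 2. On simulated counts of 29695 transcripts, 37% of 2-fold and 78% of 4-fold changes between GRKO and WT at 3 months were recovered. The changes were placed only in transcripts at 1 CPM or more on average. Simulated libraries were drawn independently, without the split among the WT libraries. The shares recovered therefore do not cover rarer transcripts or data with such a split.

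Library measures used counts thinned to the smallest total at 3 months and exact permutation tests over libraries (462 arrangements). No pair of libraries of 1 genotype agreed within counting noise (28.3 or more for chi-square over its degrees of freedom). The transcripts named were 2 in each direction with the smallest adjusted p among those that met the conditions in the text. Gene lists and marker lists were not used here, since 0 identifiers matched the gene tables. The groups, lists and alternatives were chosen with earlier results of these data known. Alternatives were other scalings, DESeq2 1.42.0, limma 3.58.1 (voom with a quality weight per library), other filters, other sets of libraries or transcripts, a block and thinning. Those on presence, on the distance between libraries and on the 6 block libraries without the block were chosen after seeing the data. Figures used matplotlib 3.10.9.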

Additional observations from a re-analysis of the deposited data

How the results depend on the processing

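At 3 months more transcripts were lower than higher in GRKO in all alternatives, and no call shared with another setting changed sign, while the counts moved widely. The margin moved too and was narrow in some, as with the replicate block (1984 higher, 2060 lower). All alternatives drew on the same libraries, so they are no independent repeats. DESeq2 gave 4114 calls (1449 higher, 2665 lower) and limma voom with quality weights 10197 (4605 higher, 5592 lower). Upper-quartile factors gave 1306 higher, and no filter on low counts gave 1131 lower. The 11 libraries of 3 months alone gave 1447 (651 higher, 796 lower). Counting GRKO library 4 as WT gave 456 (65 higher, 391 lower), leaving out WT libraries 2 and 6 gave 8937 (3732 higher, 5205 lower), and keeping only transcripts with whole counts gave 423 of 3987 tested (166 higher, 257 lower), where fewer transcripts were tested. With 1 library left out, the calls ranged from 1575 to 3593, the higher ones from 570 to 1305 and the lower ones from 992 to 2301. RLE factors, a filter of 1 CPM in 5 libraries, thinning and no robust estimation moved no count by over 1.5 times. Apart from the construction named, the cause of these changes was not tested.

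A replicate block could be fitted over the 6 libraries whose numbers occur in both genotypes (10, 12 and 13). It gave 4044 calls (1984 higher, 2060 lower), against 7251 (3522 higher, 3729 lower) for the same libraries without the block. The deviations of same-numbered libraries from their group means correlated at -0.29, 0.13 and 0.03 across transcripts. GRKO library 10 had similar values with WT libraries 12 and 13, at -0.31 and -0.32. These correlations cannot decide if same-numbered libraries were paired, since the split among the WT libraries enters all of them. The labels do not say what a number marks.

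The named transcripts kept direction and call in 95 of 96 combinations of transcript and setting. With GRKO library 4 counted as WT, ENSDART00000151502.2 had a log2 fold change of 1.48 (edgeR adjusted p = 0.0521, range over its settings 1.66e-35 to 0.0521). The named transcripts were chosen for the smallest adjusted p in these same libraries, so their stability follows in part from the choice. Present in GRKO and at 0 in every WT library were 165 transcripts without WT libraries 2 and 6 and 6 with GRKO library 4 counted as WT. Among library measures, GRKO minus WT, the effective number of transcripts turned to 130.1 without WT libraries 2 and 6, where the share of the 100 most abundant was -2.47 and that of transcripts with whole counts 0.969 percentage points. Both passed the test (adjusted p = 0.0476, exact permutation) beside the uncorrected distance and missed it (0.0714) beside the corrected one. WT libraries 2 and 6 had the lowest WT shares of the 100 most abundant and the highest of transcripts with whole counts. Leaving them out thus widens both differences by itself, and these p-values are no test of genotype. The distance from the rest of the group was -0.0324, past no test, when also corrected for the number of other libraries. With 1 library left out, that distance ranged from -0.655 to -0.46, the 10 most abundant from -0.317 to 0.101, the 100 most abundant from -1.18 to 0.637, the effective number from -285 to -0.000647, transcripts with whole counts from 0.00162 to 0.555 and transcripts detected from -1029 to -578. At totals of 30452427 to 39785753 counts, absence means below 3 counts over a group.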

Other observations

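GRKO library 10 deviated from its group in the same direction as WT libraries 2 and 6 did from theirs. Across transcripts its deviation correlated at 0.39 and 0.35 with those of WT libraries 2 and 6. The other 5 GRKO libraries had correlations of -0.15 to -0.02 with them. Deviations from a group mean cancel out over the libraries of that group. Positive values for library 10 thus draw those of the other 5 towards negative ones, which are no separate contrast. Across transcripts, the log2 CPM of GRKO library 10 correlated at 0.901 and 0.905 with WT libraries 2 and 6, and that of the other GRKO libraries at 0.853 to 0.885. These are correlations over transcripts of single libraries, given as values with no test.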
